A study of Mus musculus with 6 samples.

Results

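The 9 genes described here, Hpd, Hgd, Fah, Bhmt, Gpt, Gatm, Prodh, Dao and Agxt2, encode enzymes that act on amino acids in the kidney. They were followed in kidney RNA of male C57BL/6 mice aged 20 months (aged, 3 samples) and 2 months (young, 3 samples), all from this inbred strain and with no treatment or altered gene named in the labels. Each sample was labelled with Cy3 and hybridised to its own Agilent array. The members are the genes reached by 12 of the array's 55681 non-control probes, those designed on a RefSeq transcript of these genes, and they are 9 of the 20284 genes with a named probe. They were chosen by pathway and by their log2 processed signals in these same 6 samples, at 20 against 2 months. Their age differences are therefore given as a description. The fit over all genes also held the members, and nothing is read from their calls. The samples are independent RNA preparations, but separate mice are not stated, so p-values reflect the spread among these preparations alone, and that spread may be technical.

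Amino acids that are not needed for protein are broken down by removing or transferring the amino group and feeding the carbon chain into central metabolism. The liver does most of this, but the proximal tubule of the kidney, which takes back filtered amino acids, carries many of the same enzymes. Hpd, Hgd and Fah encode enzymes of tyrosine breakdown, in that order along the pathway: hydroxyphenylpyruvate dioxygenase, homogentisate dioxygenase and fumarylacetoacetate hydrolase. Bhmt encodes the enzyme that uses betaine to turn homocysteine back into methionine. Gpt is the cytosolic alanine aminotransferase, and Prodh is the mitochondrial proline dehydrogenase, which opens proline breakdown. Dao is the peroxisomal oxidase of D-amino acids, and Agxt2 is a mitochondrial aminotransferase that uses glyoxylate. Gatm, like Bhmt, has a role other than amino acid breakdown. It joins arginine and glycine in the first step of creatine synthesis, for which the kidney is a main site.

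The label of the tissue was met by its markers: all 22 proximal tubule genes of a marker list were well above background on all 6 arrays. All 12 member probes were also well above background on all 6 arrays, 0 of their spots were saturated, and all 9 genes passed the filter on dim probes. The 75th percentile of the processed signal, the intensity to which each array was scaled, was 4092, 3780 and 2412 on aged replicates 1, 2 and 3 and 3953, 3654 and 2591 on young replicates 1, 2 and 3. Replicate 3 was thus the dimmest array of both ages. All 6 arrays lay on 1 slide, with the aged samples in one row and the young samples in the other, so the effect of the row cannot be told apart from that of age. Same-numbered samples shared a slide column. Values below are log2 signals relative to each array's 75th percentile, so a difference of 1 is a doubling, and levels are compared within a probe only.

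The 9 genes fell into several patterns. Hpd, Bhmt and Gpt had higher signals on every aged array than on any young array, with differences of 0.81 to 1.25. Hgd, Gatm, Prodh and Dao overlapped between the ages, with differences between -0.03 and 0.12. Fah lay slightly higher and Agxt2 slightly lower in aged kidney, by 0.26 and -0.29. The median difference of the 9 genes was 0.12, against -0.01 over all 14542 genes tested.

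Promoters of genes from each pattern are shown so that the sequence upstream of a gene can be read beside its values. Sequences are from RefSeq, build GRCm38.p6, and cover the 250 bases before the transcript start on the gene's own strand, 5′ to 3′. Of the 9 genes, 8 had a promoter in that table, and Gpt is named only. Capitals mark AGGTCA, the core letters read by many nuclear receptors, or its reverse complement TGACCT, and CAAAGTCCA, a sequence bound by the liver and kidney factor HNF4, or its reverse complement. Bhmt (chr13:93637759-93638008, minus strand) and Hpd (chr5:123182724-123182973, minus strand) were higher in aged kidney. Hgd (chr16:37579903-37580152, plus strand) follows Hpd in the pathway but overlapped between ages. Agxt2 (chr15:10358283-10358532, plus strand) was only slightly lower, with a difference of -0.29.
Bhmt: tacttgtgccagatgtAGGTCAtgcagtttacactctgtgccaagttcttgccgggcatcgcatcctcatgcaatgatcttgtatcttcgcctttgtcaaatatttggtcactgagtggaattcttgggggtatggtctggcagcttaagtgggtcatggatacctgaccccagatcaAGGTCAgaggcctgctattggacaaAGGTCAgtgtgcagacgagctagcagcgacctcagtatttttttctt
Hpd: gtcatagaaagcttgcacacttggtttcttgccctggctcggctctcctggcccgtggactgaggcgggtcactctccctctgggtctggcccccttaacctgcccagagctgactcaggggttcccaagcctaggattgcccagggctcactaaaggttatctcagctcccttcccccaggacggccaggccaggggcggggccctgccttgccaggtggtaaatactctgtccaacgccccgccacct
Hgd: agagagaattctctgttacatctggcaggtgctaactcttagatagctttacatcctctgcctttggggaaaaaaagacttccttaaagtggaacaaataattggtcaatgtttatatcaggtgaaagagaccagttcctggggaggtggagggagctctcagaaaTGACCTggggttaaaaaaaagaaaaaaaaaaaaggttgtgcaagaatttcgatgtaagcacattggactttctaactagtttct
Agxt2: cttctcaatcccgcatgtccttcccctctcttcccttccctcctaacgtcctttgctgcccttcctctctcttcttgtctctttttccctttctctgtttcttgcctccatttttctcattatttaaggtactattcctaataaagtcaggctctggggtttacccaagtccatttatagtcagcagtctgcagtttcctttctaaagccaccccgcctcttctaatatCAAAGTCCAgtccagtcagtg
The Bhmt window holds AGGTCA in 3 places with first bases at positions -234, -72 and -47, counted back from -1 just before the transcript start. At least 3 copies on either strand were found in 0.131% of the 32841 promoter windows of this length, and at least 1 copy in 14.0%. The Hpd window holds no copy, and the Hgd window holds 1 on the reverse strand. Of the 11 windows of the 8 genes, 5 held AGGTCA on either strand. Among them were windows of Gatm and Dao, which overlapped between ages, and the second window of Agxt2. The 2 Agxt2 windows share bases, as do some of the Dao windows, so the 11 are not separate. Nothing is read from the count of 5. CAAAGTCCA lies at positions -21 to -13 of the Agxt2 window, the first of 2 in the table, and occurs in 0.384% of all windows. The other motifs were searched on both strands too. The HNF1 letters GTTAAT were found in 6.43% of windows and in 0 of the 11 windows of the 8 genes. The steroid receptor letters AGAACA were found in 16.1% of windows and the Klf-type letters CACCC in 52.0%. The GC box GGGCGG was found in 32.8%, the C/EBP letters TTGCNNAA in 9.57%, the TATA letters TATAAA in 12.4% and the CCAAT box in 33.9%. Of the 11 member windows, AGAACA was in 1, CACCC in 6, GGGCGG in 3, TTGCNNAA in 2, TATAAA in 3 and CCAAT in 4. The Bhmt window holds 1 CCAAT and the Hpd window 1 GGGCGG. The Hgd window holds the C/EBP letters, the TATA letters and 2 CCAAT boxes, and the Agxt2 window the Klf-type and TATA letters. No 2 of these matches overlap within a window, and a match describes the letters only.

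Hpd, whose product converts hydroxyphenylpyruvate into homogentisate, had the largest difference of the 9 genes. Its signal was 2.71, 2.90 and 3.27 on aged replicates 1, 2 and 3, against 1.53, 2.00 and 1.59 on young replicates 1, 2 and 3. The aged mean was 2.96 ± 0.28 and the young mean 1.70 ± 0.26 (SD, n = 3 each). Every aged array lay above every young array, with 0.70 between the lowest aged and the highest young value. The mean difference was 1.25 ± 0.18 (moderated SE of the fit over all genes), a signal 2.38-fold higher in aged kidney. Within slide columns 1, 2 and 3 it was 1.18, 0.89 and 1.68. Of all genes tested, 111 had a larger difference in the same direction, or 0.763%. Because the same contrast chose Hpd, this rank is a description only.

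Hgd acts next in the pathway, and in humans its loss causes alkaptonuria. It gave 3.43, 3.67 and 4.19 on the aged arrays and 3.72, 3.58 and 3.62 on the young arrays. The groups overlapped, and the aged arrays were spread more widely, with an SD of 0.39 against 0.07 in young samples. The difference was 0.12 ± 0.19, and leaving out aged replicate 3 gave -0.09, leaving out aged replicate 1 gave 0.29. Fah, the last enzyme, whose loss in humans causes hereditary tyrosinaemia, gave 4.10, 4.31 and 4.49 on the aged arrays and 4.02, 4.003 and 4.10 on the young arrays. Its lowest aged value and its highest young value were the same to 2 decimals. The difference was 0.26 ± 0.13, or 1.20-fold. Leaving out aged replicate 3 gave 0.16, and a different background correction (normexp) gave 0.11.

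The other tyrosine and phenylalanine genes on the fixed list gave no call. Gstz1, the isomerase between Hgd and Fah, differed by 0.06 ± 0.11 (limma, adjusted p = 0.845), and Qdpr, which regenerates tetrahydrobiopterin, by -0.15 ± 0.12 (adjusted p = 0.586). Tat, the aminotransferase that supplies the substrate of Hpd in liver, was well above background on 1 aged and 2 young arrays and was not tested. With limma 0 of the 5 other genes tested passed, and 0 had an unadjusted p under 0.05. In this pathway the signal of Hpd stood 1.25 higher while its tested neighbours Hgd, Gstz1 and Fah lay between 0.06 and 0.26.

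**Figure D1:**
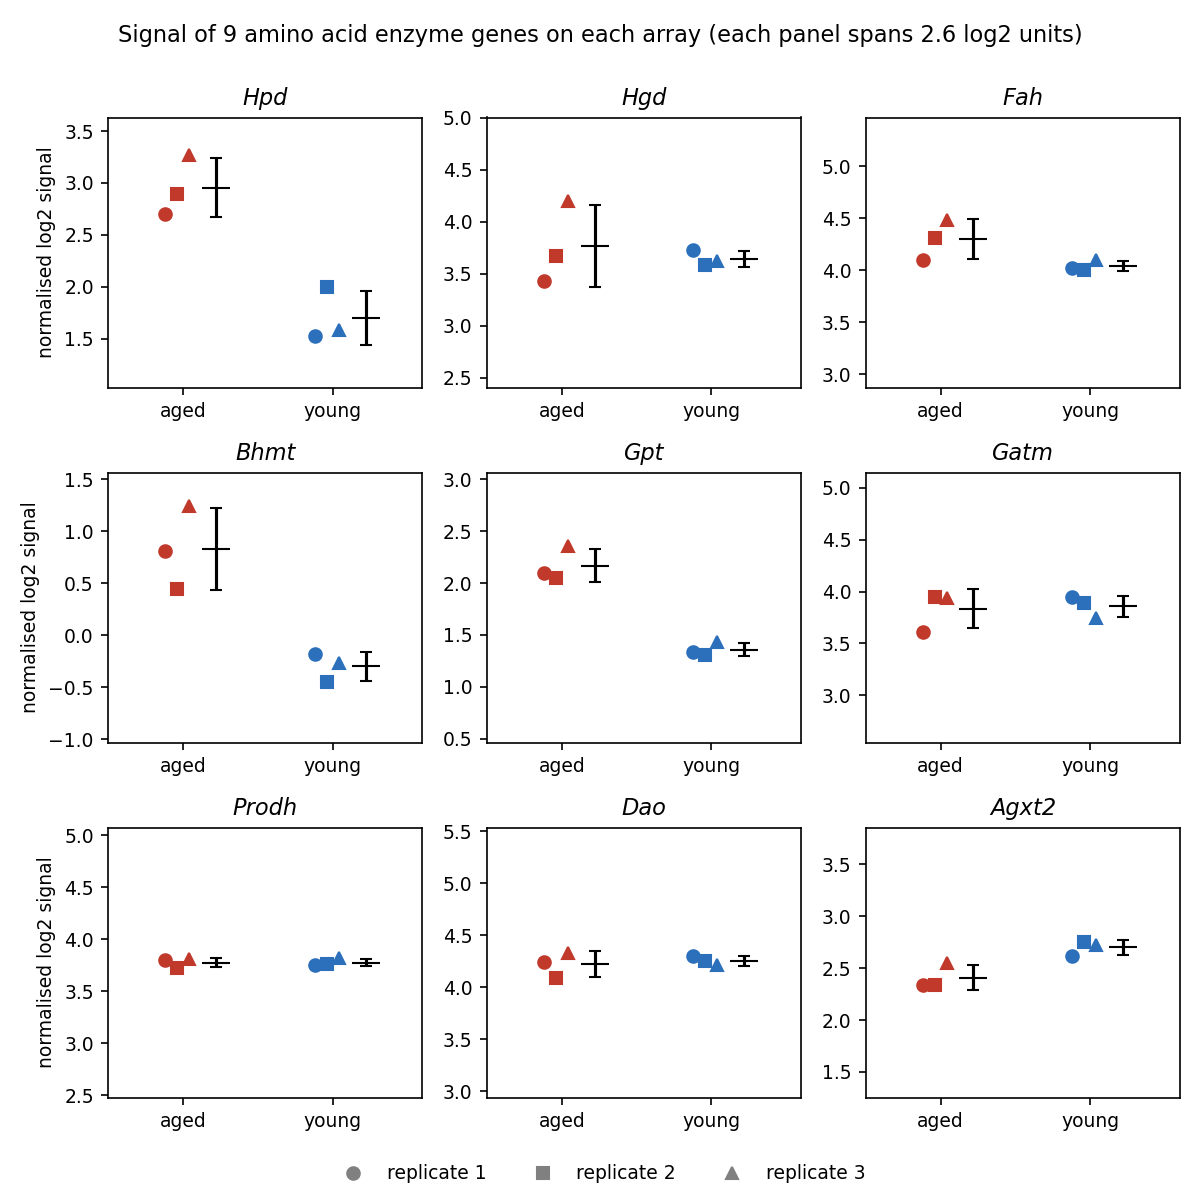
Normalised log2 signal of each of the 9 genes (brightest probe) on the 3 aged (red) and 3 young (blue) arrays, with the mean and SD beside the points and marker shapes for replicate number. Hpd, Bhmt and Gpt separate by age, with aged means of 2.96, 0.83 and 2.17 and young means of 1.70, -0.30 and 1.36.

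Bhmt, whose product methylates homocysteine with betaine, was measured by 3 probes, and all of them separated the ages. The brightest gave 0.81, 0.44 and 1.24 on aged replicates 1, 2 and 3, against -0.18, -0.45 and -0.27 on young replicates 1, 2 and 3. A second probe gave 0.39, 0.01 and 0.80 on the aged arrays and -0.51, -0.85 and -0.88 on the young arrays. The dimmest gave -0.32, -0.63 and 0.15 on the aged arrays and -1.23, -1.52 and -1.56 on the young arrays. On every probe aged replicate 3 was the highest and aged replicate 2 the lowest aged array. The differences of the 3 probes, from brightest to dimmest, were 1.13 ± 0.20, 1.15 ± 0.22 and 1.17 ± 0.21, or 2.19-fold, 2.22-fold and 2.24-fold. The first SE is from the fit over genes and the others from a fit over probes, where the first was 0.21. The 3 Bhmt probes target the same transcript and share each array, so they are not replicates of the age comparison.

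Several neighbours of Bhmt in homocysteine metabolism were also measured. Mtr, methionine synthase, remakes methionine from homocysteine with a folate donor instead of betaine. It gave -0.08, -0.47 and -0.23 on the aged arrays and 0.53, 0.47 and 0.32 on the young arrays, with no overlap. It fell by 0.70 ± 0.13 in aged kidney (limma, n = 3 per age, adjusted p = 0.0343). That call was lost without aged replicate 2 or 3 or any of young replicates 1, 2 and 3 (adjusted p of 0.0865 to 0.132) and with median centring (0.0501), normexp (0.0950), no filter on dim probes (0.167) or the replicate number as a block (0.0628). It was kept without aged replicate 1 (0.0224). Bhmt2, a paralogue of Bhmt, differed by 0.02 ± 0.11 (adjusted p = 0.938), with signals of 3.24, 3.06 and 3.10 on the aged arrays and 3.16, 3.14 and 3.02 on the young arrays. Chdh, which makes the precursor of betaine from choline, differed by 0.08 ± 0.17, and Dmgdh, which breaks down the dimethylglycine that Bhmt releases, by 0.13 ± 0.11 (adjusted p = 0.866 and 0.623). Of the 12 other genes of methionine, homocysteine and betaine metabolism tested, 1 passed, Mtr, and 0 were higher past the threshold. Gnmt, which uses up S-adenosylmethionine, differed by 0.44 ± 0.11 (adjusted p = 0.0778), a gene singled out after its values were seen.

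Gpt, the alanine aminotransferase that is released into blood when liver cells are damaged, gave 2.10, 2.05 and 2.35 on aged replicates 1, 2 and 3, against 1.34, 1.31 and 1.43 on young replicates 1, 2 and 3. The ages did not overlap, and the gap between the lowest aged and the highest young array was 0.62. The difference was 0.81 ± 0.12, or 1.75-fold, and it was close to even across slide columns at 0.76, 0.74 and 0.92. Gpt2, the mitochondrial form, gave 1.16, 1.27 and 1.53 on the aged arrays and 0.92, 0.80 and 0.95 on the young arrays, also without overlap. Its difference was 0.43 ± 0.13 and did not pass the threshold (limma, adjusted p = 0.133). Of the 8 other alanine, aspartate and glutamate genes tested, 0 passed with limma and 1, Gpt2, had an unadjusted p under 0.05. Asns, asparagine synthetase, differed by -0.21 ± 0.14 (adjusted p = 0.510).

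**Figure D2:**
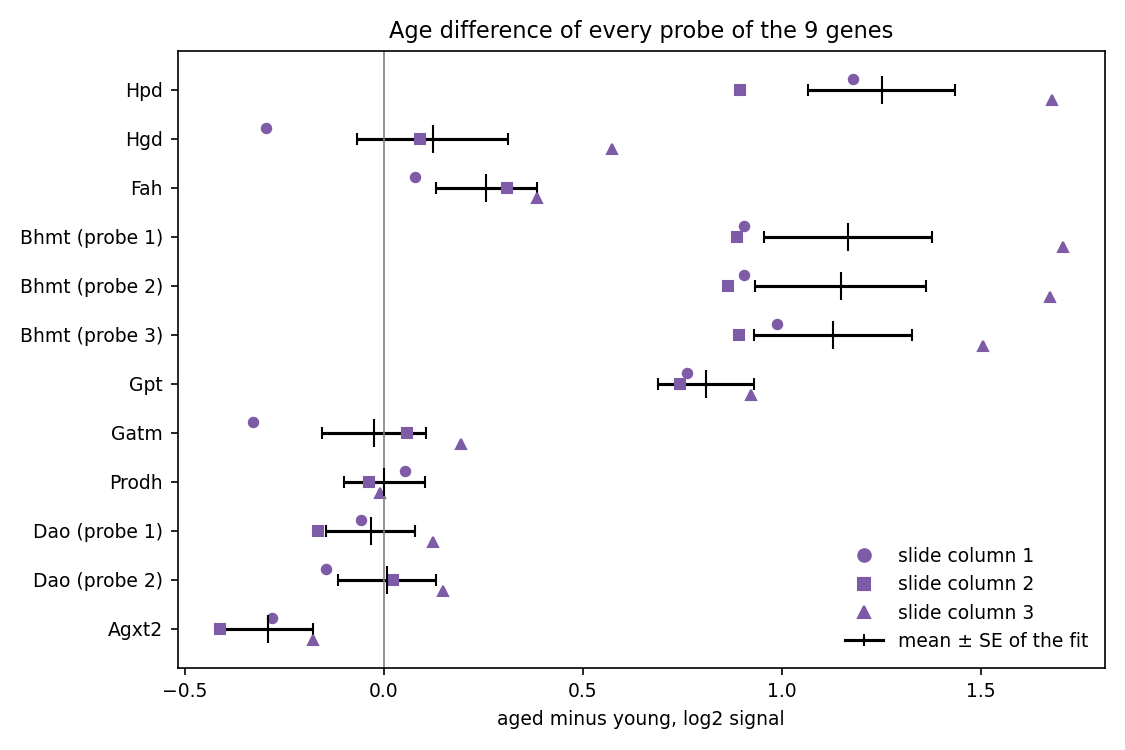
Difference in log2 signal, aged minus young, for each of the 12 probes of the 9 genes. Coloured markers compare same-numbered samples within slide columns 1 to 3. Black bars give the mean and its moderated SE. That SE is from the fit over genes for a gene's brightest probe and from a fit over probes for the rest. The 5 probes of Hpd, Bhmt and Gpt lie between 0.74 and 1.71 in every column, and those of Hgd, Gatm and Dao fall on both sides of 0.

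Gatm, Prodh and Dao showed almost the same signal at both ages. Gatm gave 3.62, 3.95 and 3.94 on the aged arrays and 3.94, 3.89 and 3.74 on the young arrays, a difference of -0.03 ± 0.13. Gamt, the methyltransferase that finishes creatine, differed by 0.17 ± 0.16 and Slc6a8, the creatine transporter, by -0.17 ± 0.13 (limma, adjusted p = 0.639 and 0.588). The 8 other arginine, creatine and urea cycle genes tested held 0 calls and 0 with an unadjusted p under 0.05 with limma. Those with the smallest p were Agmat (0.25 ± 0.15, adjusted p = 0.452) and Oat, ornithine aminotransferase (-0.25 ± 0.15, adjusted p = 0.475). Otc and Cps1, the mitochondrial urea cycle enzymes of liver, stayed near background on every array.

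Prodh was the steadiest of the 9 genes, with 3.80, 3.72 and 3.81 on the aged arrays and 3.75, 3.76 and 3.82 on the young arrays. Its difference was 0.00 ± 0.10. Aldh4a1, which carries out the next step of proline breakdown, differed by -0.03 ± 0.11, and Prodh2, which starts hydroxyproline breakdown, by 0.02 ± 0.14 (limma, adjusted p = 0.936 and 0.968). None of the 7 other proline genes tested passed, with 0 under an unadjusted p of 0.05, and the smallest p belonged to P4ha1, a collagen prolyl hydroxylase subunit (-0.52 ± 0.23, adjusted p = 0.308).

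The brighter of the 2 Dao probes gave 4.24, 4.08 and 4.33 on the aged arrays and 4.30, 4.25 and 4.21 on the young arrays. The other gave -0.11, -0.11 and 0.13 on the aged arrays and 0.04, -0.13 and -0.02 on the young arrays. Both probes overlapped between ages, with differences of -0.03 ± 0.11 and 0.01 ± 0.12. Ddo, the oxidase of acidic D-amino acids, differed by -0.24 ± 0.12 on its brightest probe (adjusted p = 0.373) and by -0.08 ± 0.11 on another. Agxt2, known also for breaking down dimethylarginines, gave 2.34, 2.34 and 2.55 on the aged arrays and 2.62, 2.75 and 2.73 on the young arrays. It was the only member whose aged arrays all lay below the young arrays, by a gap of 0.07, and its difference was -0.29 ± 0.11, or 1.22-fold lower in aged kidney. With the normexp correction it was -0.14. Agxt, the peroxisomal aminotransferase of glyoxylate, was well above background on 0 aged arrays and 1 young array. Hao2, a peroxisomal hydroxyacid oxidase of the same list, gave 3.34, 3.31 and 3.58 on the aged arrays and 2.84, 2.75 and 2.97 on the young arrays. Its difference of 0.56 ± 0.12 missed the threshold (adjusted p = 0.0522, with a range of 0.0092 to 0.202 over the alternatives). The list held 4 other tested genes and 0 calls, with Hao2 alone under an unadjusted p of 0.05.

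In the fit over all genes, the adjusted p was under 0.05 for 3 of the 9 members, Hpd, Bhmt and Gpt, against 3.56% of all genes tested in either direction. All 3 were higher in aged kidney, where 2.06% of all genes were called higher and 1.49% lower. Nothing is read from this count, since the same contrast chose the genes. It was 0 without young replicate 1, 1 without young replicate 2 (Hpd), 0 without young replicate 3, 2 without aged replicate 2 (Bhmt and Gpt) and 0 with no filter on dim probes. The differences themselves moved less: over 16 alternatives they lay between 1.097 and 1.40 for Hpd, 0.93 and 1.32 for Bhmt, and 0.72 and 0.90 for Gpt. No overlap between the ages was seen for 5 of the 9 genes, against 21.4% of all genes tested. Hpd, Fah, Bhmt and Gpt had aged arrays all above the young, as did 9.83% of all genes, and Agxt2 had them all below, as did 11.6%. The gaps of Fah and Agxt2 were small, at 0.0002 and 0.07, and neither gene was called. The count of genes without overlap is also not read as a result, since the same contrast chose the genes.

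Aged replicate 3 was the highest aged array for 8 of the 9 genes, the exception being Gatm. For Prodh it was barely so, at 3.81 against 3.80 on aged replicate 1. The share of all genes that were highest on that array was not counted. The median deviation of the 9 genes from their aged mean was 0.19 on that array, against -0.07 on aged replicate 1 and -0.07 on aged replicate 2. Over all genes tested the same medians were 0.05, -0.04 and -0.01. Aged replicate 3 was also the dimmest array, with 46.2% of probes well above background, against 62.8% and 55.6% on aged replicates 1 and 2. Summed marker signals were likewise highest on aged replicate 3 for proximal tubule, at 391 against 334 and 318 on aged replicates 1 and 2. For hepatocyte markers they were 40.9 against 35.4 and 33.7. The sums for loop of Henle and distal tubule, collecting duct, podocyte and endothelium, and fibroblast and smooth muscle were also highest there. So was that for adrenal cortex, but those for immune cells, adipocyte, pancreas and urothelium were not. The part of array brightness or of cell makeup in this pattern was not tested. On the young arrays the highest value fell on replicate 1 for 4 genes, on replicate 2 for 2 and on replicate 3 for 3.

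Beyond the 9 genes, the fixed lists of amino acid enzymes held 117 other genes with a named probe, of which 103 were tested. Because changed genes of these pathways could already have been taken as members, the rest are not a fair sample of the pathways. Of the 103, 1 was higher and 2 were lower past the threshold, 2.91% in all against 3.56% of all genes, and the median difference was -0.01. Without adjustment 11 had a p under 0.05. The higher gene was Ftcd, a bifunctional enzyme of histidine breakdown and folate transfer, with 1.93, 1.79 and 2.23 on the aged arrays and 1.32, 1.26 and 1.32 on the young arrays. It rose by 0.69 ± 0.13 (limma, n = 3 per age, adjusted p = 0.0360). Phgdh, which opens serine synthesis, gave 0.06, 0.14 and 0.34 on the aged arrays and 0.91, 0.90 and 1.04 on the young arrays. It fell by 0.77 ± 0.12 (adjusted p = 0.0153), and a second probe differed by -0.67 ± 0.14. The other gene that fell was Mtr. Ftcd lost its call without aged replicate 2 or 3 or any of young replicates 1, 2 and 3 (adjusted p of 0.0588 to 0.142) and with normexp (0.0702), no filter (0.169) or the replicate block (0.0626). Phgdh lost it without aged replicate 2 or any of young replicates 1, 2 and 3 (0.0501 to 0.0972) and with no filter (0.114).

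**Figure D3:**
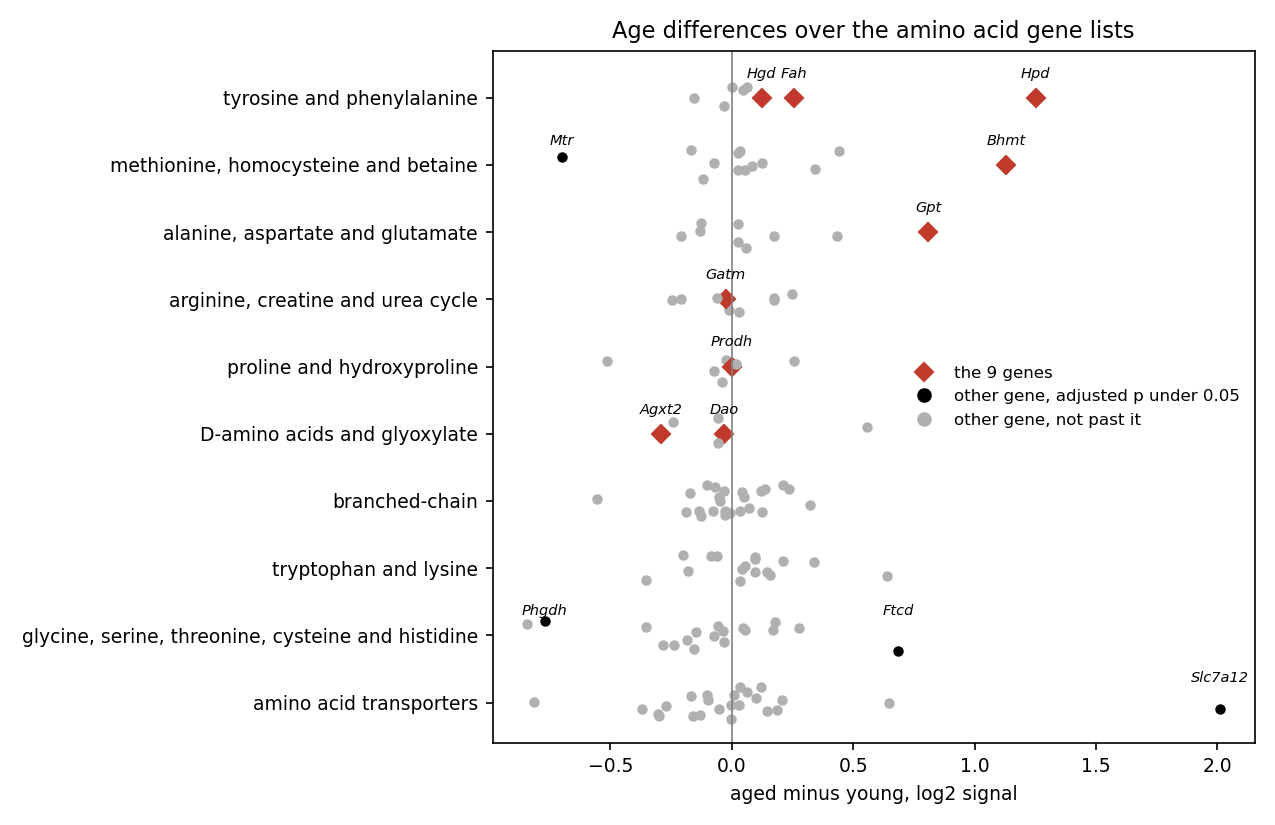
Difference in log2 signal, aged minus young, of every tested gene of the amino acid lists, 1 row per list (vertical scatter within a row has no meaning). Red diamonds are the 9 genes, black points the other genes with an adjusted p under 0.05 (Mtr, Phgdh, Ftcd and Slc7a12) and grey points the rest, most of which lie close to 0.

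The 25 branched-chain genes gave 0 calls with limma, with 1 under an unadjusted p of 0.05 and a median of -0.03. The 2 with the smallest p were Ivd, isovaleryl-CoA dehydrogenase (0.32 ± 0.12, adjusted p = 0.230), and Bcat1, the cytosolic branched-chain aminotransferase (-0.56 ± 0.29, adjusted p = 0.377). Bcat1 gave 1.41, 0.09 and 0.73 on the aged arrays and 1.41, 1.25 and 1.24 on the young arrays. Its difference was -0.89 without aged replicate 1 (adjusted p = 0.0477) and -0.23 without aged replicate 2 (adjusted p = 0.723), and the first of these was the only one of 16 alternatives in which it passed. The 16 tryptophan and lysine genes tested also gave 0 calls, with 3 under an unadjusted p of 0.05 and a median of 0.07. Kynu, kynureninase, differed by 0.64 ± 0.21 and Ido2, a tryptophan dioxygenase, by -0.36 ± 0.13 (adjusted p = 0.175 and 0.206). Of 24 amino acid transporters tested, 1 passed. Slc7a12, a transporter of small neutral amino acids, gave 1.33, 1.14 and 1.37 on the aged arrays and -0.22, -1.21 and -0.76 on the young arrays. It rose by 2.01 ± 0.23, or 4.03-fold (adjusted p = 0.00544), and lost the call without young replicate 3 (0.0635) and with no filter (0.0970).

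Transcription factors known to act on such enzymes in liver or kidney were also read from a fixed list, of which 18 were tested and 0 passed with limma, with 2 under an unadjusted p of 0.05. Hnf4a, a nuclear receptor of proximal tubule and liver, differed by 0.07 ± 0.12 (adjusted p = 0.818). Ppara differed by 0.06 ± 0.13, Klf15, a regulator of amino acid breakdown, by 0.19 ± 0.16, and Ppargc1a by -0.11 ± 0.14 (adjusted p = 0.874, 0.595 and 0.769). The smallest p was that of Cebpa (-0.75 ± 0.22, adjusted p = 0.119).

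**Figure D4:**
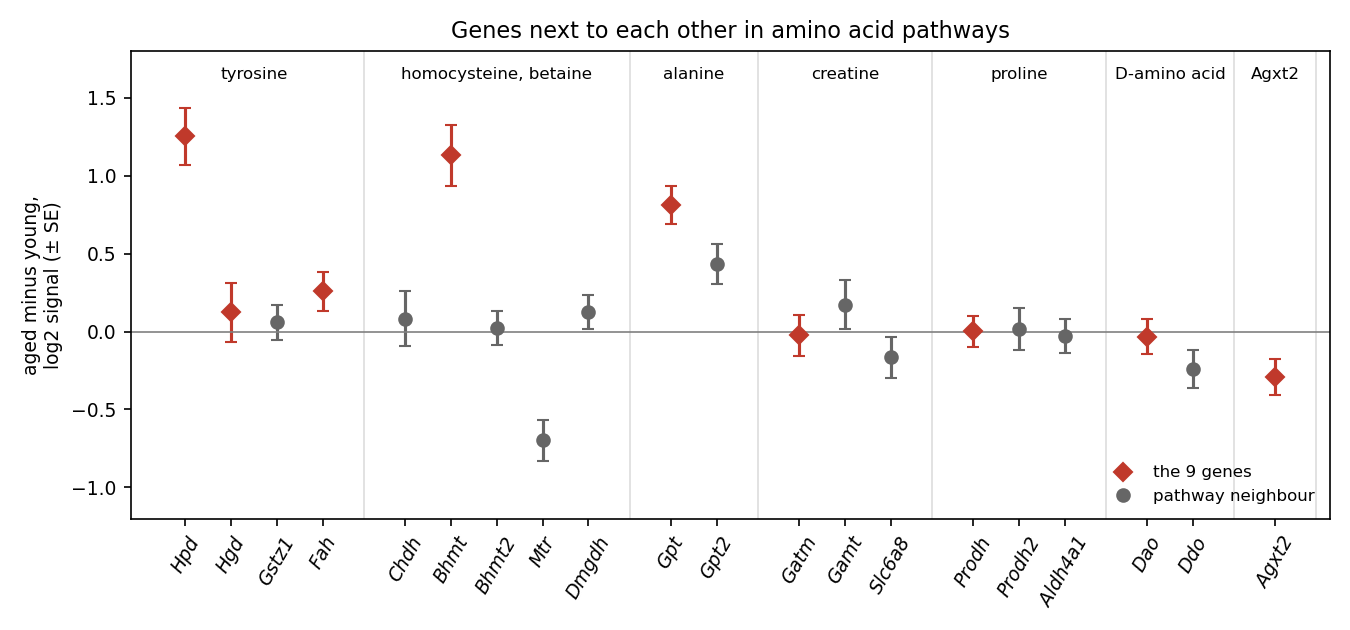
Difference in log2 signal, aged minus young, with its moderated SE, for the 9 genes (red diamonds) and their pathway neighbours (grey circles). Hpd at 1.25, Bhmt at 1.13 and Gpt at 0.81 stand above their neighbours, and Mtr lies at -0.70.

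Genes whose signals ran most like the members were sought by Pearson's r over the 6 arrays, as a description that includes the age difference and the brightness the arrays share. Among 126 other genes of the enzyme and transporter lists, the closest to Bhmt was Ftcd (r = 0.994), the closest to Gpt was Hao2 (r = 0.990) and the closest to Hpd was Gnmt (r = 0.943). Gamt ran closest to Hgd (r = 0.969), Asl to Fah (r = 0.969), Suox to Agxt2 (r = 0.972), Amt to Dao (r = 0.987), Qprt to Prodh (r = 0.923) and Gldc to Gatm (r = 0.883). Over all 14495 other genes with a value on every array, the 5 closest to the mean of Hpd, Bhmt and Gpt were Pdp2 (0.998), Fndc4 (0.994), Ftcd (0.992), Cyp2c39 (0.991) and Hk2 (0.990). Of these genes, 135 had an r above 0.95 and 25 an r above 0.98.

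Whole kidney holds many cell types, and in bulk RNA fewer cells of a type and less RNA per cell cannot be told apart. The summed signal of the 22 proximal tubule markers, in units of each array's 75th percentile, was 318 to 391 in aged and 349 to 379 in young samples, and 0 of the 22 passed the test (2 with an unadjusted p under 0.05). Several members are also liver genes. The summed signal of 15 hepatocyte markers was 33.7 to 40.9 in aged and 37.1 to 41.0 in young samples, and Cyp3a11, Cps1 and Mat1a were well above background on 0 of 6 arrays. Of the 10 hepatocyte markers tested 1 passed, Itih3, which rose by 1.07 ± 0.15 (adjusted p = 0.0114). Alb differed by 0.77 ± 0.23, Apoa1 by -0.79 ± 0.22 and Ttr by -0.32 ± 0.11, none past the threshold (adjusted p = 0.138, 0.106 and 0.174). The immune marker sums did not overlap between ages: over 10 genes they were 23.4 to 26.2 in aged and 11.8 to 15.5 in young samples, and 2 of 8 tested rose, Jchain and Itgax. The sum of 6 adipocyte markers was 19.4 to 22.2 in aged and 4.74 to 19.3 in young samples. That of 9 collecting duct markers was 26.3 to 30.8 in aged and 30.7 to 32.8 in young samples. The part of these cell types in the values of the 9 genes was not tested.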

How the data were processed

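Per the file headers, each spot's intensity was processed by Agilent Feature Extraction 11.5.1.1 (protocol GE1_1105_Oct12, 1 colour), with background subtraction and detrending within each array and no scaling between arrays. Per the labels, cDNA was labelled by Klenow enzyme with random primers, so either strand can carry label. The authors' deposited value table is on the log2 scale and differed from the values used here by at most 0.0083, which settles its scale and centring. The medians of its columns were -3.96, -4.17 and -4.23 for aged and -3.97, -4.05 and -4.23 for young replicates 1 to 3.

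Control spots and spots with an outlier flag were left out, spots were averaged per probe on the log2 scale, and each array's 75th percentile was subtracted. Of 55681 probes, 26762 matched a single gene symbol through RefSeq accession (GRCm38.p6) and 28919 none. The arrays' grid was annotated on another build (mm9), so no gene coordinates from it are given. A gene is its brightest probe. It was tested where all arrays of at least 1 age had that probe well above background, with limma (lmFit, eBayes, two-sided) and Benjamini-Hochberg adjustment over 14542 genes at 0.05. Of these, 517 passed (300 higher, 217 lower in aged kidney). The SE given for any other probe of a gene comes from the same fit run over all probes passing that filter.

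The members, gene lists, motifs and tests were chosen with earlier results of these data known. Named were all members, up to 4 genes per list past the threshold or else the 2 with the smallest p, and set pathway partners and regulators, some of which are not reported here. Alternatives covered normalisation, background correction, filters, probe choice, variance model, replicate number as a block and each array left out. Normexp (offset 50) used the median spot intensity, a choice made after seeing that the files hold no mean signal. A slide block was not fitted, with all arrays on 1 slide. The fit was first tested on simulated data. Tests were run in R 4.3.3 with limma 3.58.1, and promoters and plots were handled in Python 3.11.15 with pandas 2.3.3, numpy 2.4.6 and matplotlib 3.10.9.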

Additional observations from a re-analysis of the deposited data

How the results depend on the processing

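The differences of Hpd, Bhmt, Gpt and Fah stayed above 0 under all 16 alternatives, and that of Agxt2 stayed below 0. Those of Fah were small, at 0.11 to 0.36, and neither Fah nor Agxt2 was called in any of them. The signs of Hgd, Gatm, Prodh and Dao, all close to 0, depended on the setting. The median difference of the 9 genes was 0.12, ranged from -0.014 (without aged replicate 3) to 0.29 (without aged replicate 1) over the fits that left out an array, and lay between 0.10 and 0.17 under the other settings. The count of genes called, 517, was 289 with normexp (197 higher, 92 lower), 802 with median centring (435 higher, 367 lower), 16 without a filter on dim probes (15 of them higher, 1 lower) and 80 to 935 with an array left out. Lower calls outnumbered higher ones only without aged replicate 1 (358 higher, 577 lower of 935), and without young replicate 3 the 80 were 68 higher and 12 lower. The other amino acid enzymes called were 1 higher and 2 lower. They were 0 higher and 1 lower with normexp, and 0 and 0 with no filter. Quantile normalisation and the trended robust variance each gave 3 higher, and the filter for signal on all 6 arrays and keeping outlier spots each gave 2 higher. With an array left out they were 0 to 2 higher and 0 to 4 lower. The cause was not tested. The same replicate numbers in both ages mark slide columns. With the replicate number as a block, 299 genes were called (177 higher, 122 lower), with 0 higher and 1 lower among the other amino acid enzymes: Phgdh passed (adjusted p = 0.0380), and Mtr and Ftcd did not (0.0628 and 0.0626). The deviations of same-numbered samples correlated at 0.06, -0.09 and 0.10, and 2 of 6 samples correlated best with their own number, so the numbers were not taken to pair the samples. With 3 arrays per age, precision is limited by the number of arrays, and dim probes such as those of Tat and Agxt could not be tested.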
